A study of Mus musculus with 10 samples.

Results

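The nuclear-encoded genes of oxidative phosphorylation were taken as every protein-coding gene whose GENCODE symbol marks a subunit of respiratory complex I (Ndufa, Ndufb, Ndufc, Ndufs and Ndufv), complex II (Sdha to Sdhd), complex III (Uqcr), complex IV (Cox4 to Cox8) or complex V (Atp5). This rule gave 84 of the 41091 gene identifiers: 37 genes of complex I, 4 of complex II, 8 of complex III, 18 of complex IV and 17 of complex V. The choice used symbols and no measured value. The rule was applied to genes with a row in the libraries' files, and a further protein-coding identifier with the symbol Atp5o had none. Of the 84 genes, 80 were among the 16669 genes with enough reads to be tested. The 4 that were not tested were Cox7b2, Cox6a2, Cox8b and Cox8c. Ndufa4 is counted here with complex I by its symbol, although its protein is now assigned to complex IV.

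Oxidative phosphorylation makes ATP at the inner mitochondrial membrane. Complexes I and II pass electrons from NADH and succinate to ubiquinone, complex III passes them on to cytochrome c, complex IV passes them to oxygen, and complexes I, III and IV pump protons that drive ATP synthesis by complex V. The complexes other than complex II combine subunits from the nucleus with subunits from mitochondrial DNA; the mitochondrially encoded subunits are not analysed here. Several nuclear subunits exist as alternative isoforms that are typical of muscle, testis or low oxygen.

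The cells were C57BL6 mouse olfactory epithelium collected 9 days after a methimazole lesion, which destroys the olfactory epithelium and sets off its regeneration. They grew on gelatin in a proliferation medium with EGF, FGF2 and heparin, and every culture received a lentivirus carrying a short hairpin. Libraries of the shCTR group carried a non-targeting hairpin (replicates 1, 2, 5 and 6), those of the shCBX7 group a hairpin against Cbx7 (replicates 1, 2 and 5), and those of the shCBX8 group a hairpin against Cbx8 (replicates 1, 2 and 6). Cbx7 and Cbx8 encode chromobox subunits of Polycomb repressive complex 1. Both groups with a targeting hairpin were compared with the same control libraries, and with each other. These are bulk RNA measurements, in which fewer cells of a type and less RNA per cell cannot be told apart.

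The libraries held 22763014 to 50463172 gene counts. Cbx8 was at 12.4, 15.9, 10.2 and 10.8 CPM (the gene's share of the library's counts, scaled to a common total) in shCTR libraries 1, 2, 5 and 6 and at 4.99, 5.14 and 4.71 CPM in the shCBX8 libraries (adjusted p = 0.00416, log2 fold change -1.31, SE 0.22; with the covariate for background described next, -1.05 and adjusted p = 0.0831). Cbx7 was at 17.7, 16.4, 13.5 and 5.30 CPM in the controls and at 3.64, 8.02 and 13.1 CPM in the shCBX7 libraries, so these groups overlapped (log2 fold change -0.67, SE 0.48, adjusted p = 0.929) and the level of the target did not separate the libraries labelled shCBX7 from the controls. Signs of background differed between the whole control group and the other libraries. Unmapped reads made up 21.7%, 19.6%, 14.0% and 9.83% in shCTR 1, 2, 5 and 6 and 5.03% to 7.81% in the 6 others, and the single gene model Gm10800 took 10.4%, 8.34%, 4.14% and 1.96% of gene counts against 0.737% to 1.51%. The forward-strand level summed over olfactory and vomeronasal receptor genes was 111, 89.5, 68.8 and 32.9 CPM in the controls and 11.02 to 27.4 CPM in the others. Libraries shCTR 1 and 2 were the most extreme in each, so the comparisons were repeated without them, and also with the log2 of this receptor level as a covariate. In each of these signs all controls lay on one side, so background and the control hairpin cannot be fully told apart. The forward-strand share of stranded counts was 10.4%, 8.68%, 6.34% and 7.60% in shCTR 1, 2, 5 and 6. It was 7.75% in shCBX8 2 and 3.42% to 3.96% in the rest. The summed level of 10 fibroblast markers was 5661 to 28649 CPM in shCTR, 5307 to 18047 CPM in shCBX7 and 169 to 3070 CPM in shCBX8. For 6 horizontal basal cell markers the ranges were 307 to 1079, 283 to 951 and 1045 to 1184 CPM, and for 7 sustentacular markers 103 to 1507, 76.4 to 1607 and 3513 to 9865 CPM. The basal cell keratin gene Krt5 was present in every library (8.37 to 336 CPM), whereas Omp, which marks mature olfactory neurons, did not exceed 0.605 CPM, and Neurog1, which marks neuronal precursors, did not exceed 0.150 CPM. Even so, the summed level of a list of 8 olfactory neuron markers was 62.3 to 124 CPM in shCTR, 66.1 to 159 CPM in shCBX7 and 25.5 to 90.7 CPM in shCBX8. The part of these differences in the results on respiratory genes was not tested.

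Promoters of respiratory genes are known for sites of the factors NRF1 and YY1 and of the ETS family. RefSeq promoter sequences of build GRCm38.p6, each running from 250 bases before to 50 bases after the gene's start, were matched for 66 of the 84 genes. The NRF1-type letters (GCGCA, any base, then GCGC), searched like the others on both strands, occurred in 16 of these 66 promoters (24.2%). They occurred in 6.96% of all 16300 promoters matched for protein-coding genes, which include the 66. The ETS-type letters CCGGAAG occurred in 15 (22.7%, against 12.4% of all), the YY1-type letters AANATGGC in 14 (21.2%, against 6.79%) and the GC box GGGCGG in 26 (39.4%, against 48.6%). Each motif was counted by itself, so that a base could belong to more than 1 match. A match here is a run of letters and not a measured binding site.

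The promoters of 4 genes described further on are printed 5′ to 3′ on the strand of the gene, because they are 2 genes that were higher and 2 that were lower in shCBX8 than in shCTR. Capitals mark NRF1-type, ETS-type and YY1-type letters. The Atp5b window is chr10:128083057-128083356 on the plus strand and holds a YY1-type match. The Ndufs6 window is chr13:73328433-73328732 on the minus strand and holds an NRF1-type and a YY1-type match. The Ndufs8 window is chr19:3912725-3913024 on the minus strand and holds an ETS-type and a YY1-type match. The Ndufv1 window is chr19:4012706-4013005 on the minus strand and has none of the 3 runs of letters.
Atp5b: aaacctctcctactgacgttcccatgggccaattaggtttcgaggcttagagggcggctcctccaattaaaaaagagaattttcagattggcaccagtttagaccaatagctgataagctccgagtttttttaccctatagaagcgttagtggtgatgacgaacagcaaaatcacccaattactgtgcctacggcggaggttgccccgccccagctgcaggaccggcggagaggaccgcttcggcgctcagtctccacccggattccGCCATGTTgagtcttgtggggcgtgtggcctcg
Ndufs6: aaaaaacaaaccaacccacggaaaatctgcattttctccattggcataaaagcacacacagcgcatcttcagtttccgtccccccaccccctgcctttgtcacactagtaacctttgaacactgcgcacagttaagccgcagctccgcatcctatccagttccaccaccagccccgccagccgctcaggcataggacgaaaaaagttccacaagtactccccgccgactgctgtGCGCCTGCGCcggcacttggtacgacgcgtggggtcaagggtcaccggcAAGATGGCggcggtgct
Ndufs8: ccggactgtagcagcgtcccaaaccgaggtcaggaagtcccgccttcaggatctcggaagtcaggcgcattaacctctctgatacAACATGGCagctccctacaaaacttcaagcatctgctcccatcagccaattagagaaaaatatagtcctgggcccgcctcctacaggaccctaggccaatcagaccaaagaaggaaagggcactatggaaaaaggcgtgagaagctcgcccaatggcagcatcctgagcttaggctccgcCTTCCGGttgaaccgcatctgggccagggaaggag
Ndufv1: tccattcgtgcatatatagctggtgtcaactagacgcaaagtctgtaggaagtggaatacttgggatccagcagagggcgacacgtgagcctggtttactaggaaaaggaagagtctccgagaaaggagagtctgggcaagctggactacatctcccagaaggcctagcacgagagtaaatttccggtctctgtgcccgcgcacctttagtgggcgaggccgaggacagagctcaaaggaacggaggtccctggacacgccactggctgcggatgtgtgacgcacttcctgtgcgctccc
Of the 15 respiratory genes that were higher in shCBX8, 11 had a promoter sequence, and 2 of those held NRF1-type, 1 ETS-type and 2 YY1-type letters and 6 a GC box. Of the 4 lower genes, 2 had a sequence, with 0, 1, 1 and 0 matches in the same order. Of the 61 that did not pass the test, 51 had a sequence, and 14, 13, 11 and 19 of those held the 4 kinds.

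The respiratory genes were abundant and differed widely in level. Their summed level was 7730, 7693, 7342 and 7353 CPM in shCTR 1, 2, 5 and 6. In CPM per kilobase of the principal transcript, averaged over the shCTR libraries, Atp5b, the catalytic beta subunit of ATP synthase, was the highest at 406, followed by Cox4i1, the ubiquitous form of cytochrome c oxidase subunit 4, at 350, and Uqcrh, the hinge subunit of complex III, at 303. Ndufa4 was the highest of the genes counted with complex I (245 CPM per kb) and Sdhb, the iron-sulfur subunit of succinate dehydrogenase, of complex II (80.4). These ranks depend on the transcript length used. Per kilobase of all annotated exons of a gene, Cox6b1 was at 233, Cox8a at 203 and Atp5a1 at 196, above Atp5b at 184. By that length Ndufa2 (121) was above Ndufa4 (108) and Sdhd (73.8) above Sdhb (41.0). Among genes that averaged 10 CPM or more, the median level per kb was 51.9 for 36 genes of complex I, 72.6 for 4 of complex II, 101 for 8 of complex III, 140 for 12 of complex IV and 133 for 16 of complex V.

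**Figure D1:**
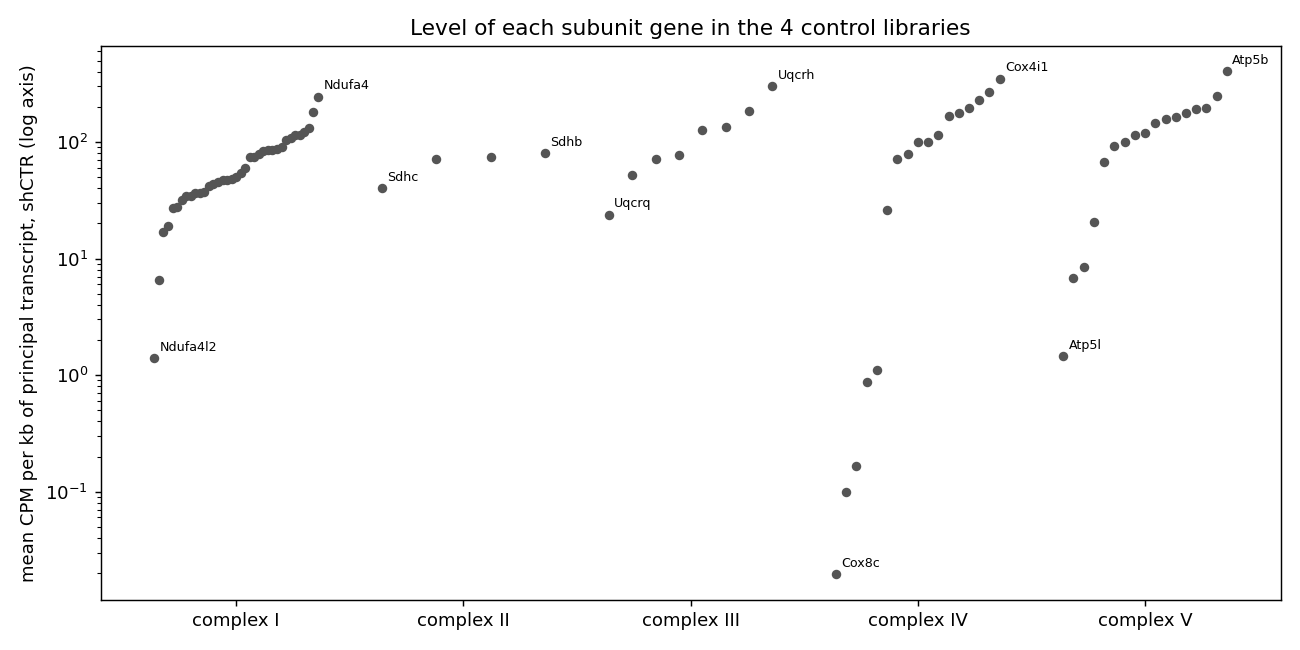
Mean CPM per kilobase of the principal transcript (log axis) of each subunit gene in the 4 shCTR libraries; each point is a gene, ordered within its complex, and the highest and lowest are named. Atp5b reaches 406 and Cox4i1 350, whereas the complex IV isoforms Cox4i2, Cox7a1, Cox7b2, Cox6a2 and Cox8c sit at the bottom; Cox8b had no count in shCTR and cannot be drawn on a log axis.

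At the low end stood isoforms that are typical of other tissues, and one gene that shares its sequence. Cox8c, a testis form, was at 0.02 CPM per kb and Cox8b, a muscle form, at 0. Ndufa4l2, a relative of Ndufa4 that is induced in low oxygen, was at 1.41. Atp5l, subunit g of ATP synthase, was at only 1.46 CPM per kb, and 84.9% of the 50-base words of its transcript also occur in transcripts of 14 other genes. Uniquely mapped reads were counted, so the levels of Atp5l and of Atp5g2 (87.4% of words shared), Cox7c (53.0%) and Atp5o (50.3%) are uncertain.

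The libraries labelled shCBX7 were compared with shCTR first. No respiratory gene passed an adjusted p of 0.05 (edgeR's quasi-likelihood test with Benjamini-Hochberg adjustment), and 0% of all 16669 genes did. At an unadjusted p under 0.05 there were 5 respiratory genes and 975 of all genes, and DESeq2 called 0 of the respiratory genes and 91 of all genes. The fitted log2 fold changes of the 80 tested genes had a median of 0.11, and 69 were above and 11 below 0, while the median of all genes was 0.00. Among genes that averaged 10 CPM or more, the median was 0.12 for the respiratory genes and 0.06 for all genes. The 95% intervals of 72 of the 80 genes lay wholly within a 1.5-fold change in either direction.

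Ndufa8, an accessory subunit of complex I, had the smallest p. It was at 45.7, 46.9, 45.5 and 48.4 CPM in shCTR and at 63.3, 60.5 and 52.8 CPM in shCBX7. The groups did not overlap, and the log2 fold change was 0.34 (95% interval 0.11 to 0.56, adjusted p = 0.489). Atp5g3, one of 3 genes for the c subunit of the ATP synthase rotor, was at 105, 106, 124 and 122 CPM in shCTR and at 161, 135 and 138 CPM in shCBX7. All 3 shCBX7 values were again above all controls (log2 fold change 0.34, adjusted p = 0.565). Uqcr10, a small subunit of complex III (log2 fold change 0.30, adjusted p = 0.696), Atp5mpl, a small membrane subunit of ATP synthase (0.29, 0.669), and Sdhb (0.24, 0.805) were the others with an unadjusted p under 0.05.

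In all, 9 of the 80 genes (11.2%) had every shCBX7 library above every shCTR library and 0 had every one below. Over all genes tested the shares were 1.7% and 3.73%. The lowest fitted values belonged to genes of low or scattered level: Ndufa4l2 at -2.42 (adjusted p = 0.915), Cox6b2 at -0.58 (0.929) and Cox4i2 at -0.52 (0.934). For Ndufa4l2 a single library weighed on this value, since shCTR 2 was at 3.91 CPM and the other controls at 0.436, 0.854 and 0.0576 CPM. With shCTR 1 and 2 left out the median of the respiratory genes was 0.17 and Cox4i2 turned to 0.24 and Ndufb11 from -0.20 to 0.13, none of them called.

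**Figure D2:**
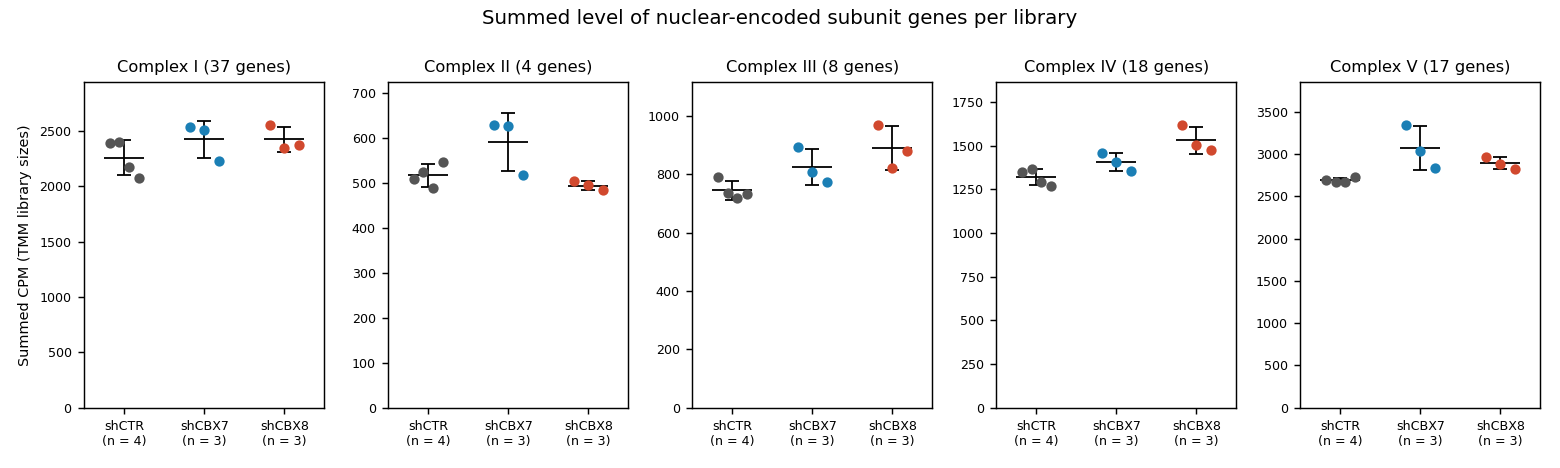
Summed CPM (TMM library sizes) of the subunit genes of each complex in each library, with the group mean and SD as bars. The shCBX8 libraries lie at 821 to 970 for complex III and 1472 to 1619 for complex IV, above all shCTR libraries, and at 484 to 505 for complex II, within and below the shCTR range.

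Summed over each complex, the 3 groups stayed close. The complex I sum was 2075 to 2400 CPM in shCTR, 2231 to 2534 CPM in shCBX7 and 2343 to 2554 CPM in shCBX8, with overlap between all groups. The complex II sum was 488 to 548 CPM in shCTR, 518 to 630 CPM in shCBX7 and 484 to 505 CPM in shCBX8. For complex III the 4 controls lay at 718 to 792 CPM, and the 3 shCBX8 libraries at 970, 821 and 881 CPM lay above them. For complex IV the controls lay at 1269 to 1365 CPM and shCBX8 at 1619, 1502 and 1472 CPM. For complex V the controls lay at 2667 to 2728 CPM, shCBX7 at 3346, 3035 and 2830 CPM and shCBX8 at 2966, 2879 and 2825 CPM, so that both groups with a targeting hairpin lay above the controls. Scaled by library size alone, in place of the TMM factors used for these sums, complex I did not overlap between groups. Its sum was then 2035 to 2270 CPM in shCTR, 2312 to 2401 CPM in shCBX7 and 2461 to 2788 CPM in shCBX8. The complex II sum was then 460 to 537 CPM in shCTR and 520 to 551 CPM in shCBX8. All these sums are dominated by the most abundant genes and were not tested.

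Single subunit genes differed between shCBX8 and shCTR in both directions. In shCBX8, 15 respiratory genes rose and 4 fell against shCTR, and 61 of the 80 did not pass the test. The share that passed was 23.8%, against 32.9% of all genes tested; 18.8% rose, against 17%, and 5% fell, against 15.9%. The median log2 fold change was 0.09, and the median of all genes was -0.01. By complex, 7 rose and 2 fell of 37 in complex I, none changed of 4 in complex II, 3 rose of 8 in complex III, 2 rose and 1 fell of 14 in complex IV, and 3 rose and 1 fell of 17 in complex V. Among genes that averaged 10 CPM or more, the median size of the log2 fold change, whatever its sign, was 0.23 for 76 respiratory genes and 0.41 for all 9792 such genes, and 4 of the 19 changed genes differed by more than 1.5-fold. In 18 of the 19 every shCBX8 value lay on one side of all controls; over all genes tested 42.4% did not overlap (22.9% higher and 19.5% lower), and of the 80 respiratory genes 22 lay wholly higher and 8 wholly lower.

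The counts depended on the controls and on the scaling. Without shCTR 1 and 2, 3 respiratory genes rose and 0 fell, beside 2409 of all genes in place of 5478. The 3 were Ndufa4, Uqcrq and Cox5a. With the background covariate, 8 were higher and 1 lower, and they were largely other genes. Of the 15 higher calls, 12 were lost and 3 kept (Ndufa4 at 1.04, Ndufc2 at 0.70 and Ndufs6 at 1.05), and Ndufb3, Uqcrb, Cox6c, Cox7c and Atp5s were added. Of the 4 lower calls Ndufv1 was kept (-0.58, adjusted p = 0.0433). Scaling by library size alone, in place of the TMM factors used throughout, gave 32 higher and 1 lower. That scaling moved the median of all genes to 0.17 and the share of higher calls among all genes from 51.6% to 67.2%.

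**Figure D3:**
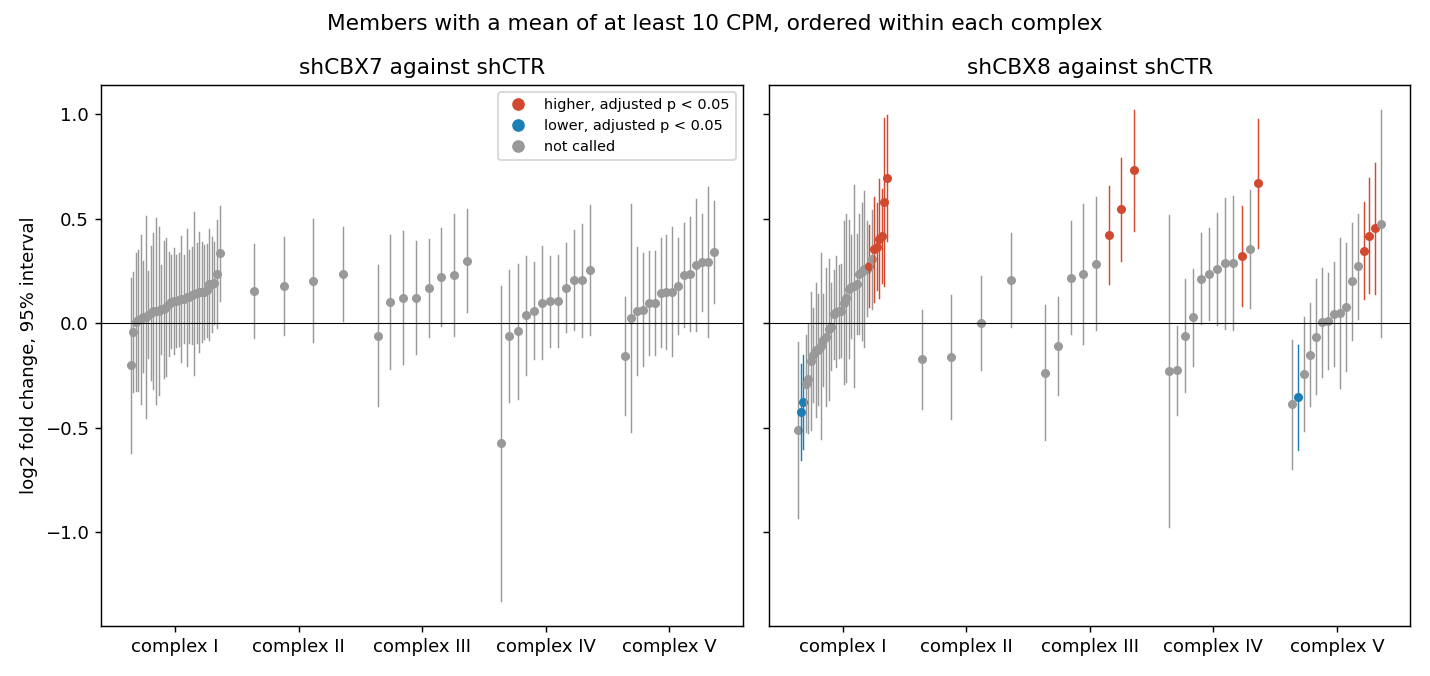
Log2 fold change with its 95% interval for each gene that averaged 10 CPM or more, ordered within each complex, for shCBX7 against shCTR (left) and shCBX8 against shCTR (right). Colour marks an adjusted p under 0.05: no gene on the left, and 15 higher and 3 lower genes on the right; Cox4i2 is under this level and is not drawn.

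In complex I, the largest, 9 of 37 genes changed (24.3%, below the 32.9% of all genes). Ndufa4 (chr6:11900292-11907497, minus strand, build mm10) was at 170, 156, 141 and 133 CPM in shCTR, at 169, 165 and 152 CPM in shCBX7 and at 280, 205 and 241 CPM in shCBX8. The shCBX8 libraries lay above all 7 others. Its log2 fold change against shCTR was 0.69 (SE 0.134, adjusted p = 0.00662), and this call held in each of the 21 alternative analyses, including the removal of any 1 library, with values from 0.59 to 1.04.

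Ndufv1 and Ndufs8, which encode subunits of the NADH-oxidising and electron-carrying arm, fell. Ndufv1 (chr19:4007384-4012806, minus strand), the flavin-binding subunit that takes electrons from NADH, was at 81.2, 80.2, 79.5 and 88.6 CPM in shCTR and at 60.2, 61.5 and 62.2 CPM in shCBX8 (log2 fold change -0.43, SE 0.10, adjusted p = 0.0142). Ndufs8 (chr19:3908863-3912774, minus strand), an iron-sulfur subunit, was at 46.1 to 49.02 CPM in shCTR and at 39.3, 35.3 and 35.7 CPM in shCBX8 (-0.38, SE 0.10, adjusted p = 0.0209). Neither gene's groups overlapped. Both calls were lost without shCBX8 1 or without shCBX8 6, with adjusted p of 0.0597 to 0.0670 for Ndufv1 and 0.0524 to 0.0913 for Ndufs8, and under scaling by library size alone. Without shCTR 1 and 2 both were lost (0.0581 and 0.0932), and with the background covariate that of Ndufs8 was lost (0.138).

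Accessory subunits of complex I made up the other rises. Ndufa10 was at 64.8, 70.7, 74.4 and 83.0 CPM in shCTR and at 97.0, 95.3 and 101 CPM in shCBX8 (log2 fold change 0.42, SE 0.099, adjusted p = 0.0139). Ndufb9 was at 92.5, 95.4, 92.6 and 91.5 CPM in shCTR and at 116, 130 and 114 CPM in shCBX8 (0.37, SE 0.093, adjusted p = 0.0178). The groups did not overlap for either. Ndufb6 (0.28, adjusted p = 0.0380), Ndufc2 (0.35, 0.0390) and Ndufa12 (0.41, 0.0368) rose by less or with less margin. Ndufs6, a zinc-binding accessory subunit, was at 30.3, 29.7, 24.1 and 23.8 CPM in shCTR and at 49.1, 29.1 and 42.7 CPM in shCBX8. It was the 1 gene among the 19 whose groups overlapped (0.58, SE 0.179, adjusted p = 0.0351), since shCBX8 2 lay within the controls.

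Removing shCBX8 1 left 2261 of all genes called, in place of 5478. The calls for these accessory subunits were also lost in removals of 1 library, although their fitted values kept their sign. That of Ndufa10 was lost if shCBX8 1 or 6 was removed (0.0514 to 0.0628) or the background covariate was added (0.20, adjusted p = 0.347). That of Ndufb9 was lost without shCTR 1 or shCBX8 1 (0.0513 to 0.0542) and with the covariate (0.28, adjusted p = 0.257). Those of Ndufb6 (0.0523 to 0.135 without any 1 of the 10 libraries), Ndufc2 (0.0510 to 0.136 without any but shCBX8 2), Ndufa12 (0.0513 to 0.145 without shCTR 1, 2 or 6, shCBX7 2, shCBX8 1 or 6) and Ndufs6 (0.0522 to 0.145 without any control, shCBX7 1, shCBX8 1 or 6) were lost more readily. The covariate also ended the calls of Ndufb6 (0.224) and Ndufa12 (0.313). Without shCTR 1 and 2 together, all of these accessory subunits lost their calls (0.0625 to 0.220).

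In complex III, 3 of 8 genes rose and 0 fell (37.5%). Of all genes tested, 32.9% changed and 17% rose. Uqcrq (chr11:53427922-53430831, minus strand), a small subunit that binds next to cytochrome b, had the largest rise of all respiratory genes that passed. It was at 34.3, 35.7, 32.8 and 42.2 CPM in shCTR, at 47.6, 38.9 and 41.0 CPM in shCBX7 and at 65.5, 52.7 and 62.5 CPM in shCBX8. Every shCBX8 library exceeded every other library, and the log2 fold change against shCTR was 0.73 (SE 0.129, adjusted p = 0.00483).

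Uqcr10 (chr11:4701973-4704342, minus strand) was at 56.5, 60.1, 54.8 and 61.3 CPM in shCTR and at 92.7, 79.1 and 82.8 CPM in shCBX8 (log2 fold change 0.54, SE 0.11, adjusted p = 0.00788). Uqcrc1, a core protein of the matrix side, was at 127 ± 11.2 CPM (SD, n = 4) in shCTR and 170 ± 6.85 CPM (SD, n = 3) in shCBX8 (0.42, SE 0.104, adjusted p = 0.0158). Neither overlapped. The calls of Uqcrq and Uqcr10 held without any 1 library, and that of Uqcrc1 was lost without shCBX8 6 (0.0697). With the background covariate all 3 calls were lost: Uqcrq at 0.58 (adjusted p = 0.102), Uqcr10 at 0.48 (0.122) and Uqcrc1 at 0.23 (0.343). Without shCTR 1 and 2, Uqcr10 (0.0574) and Uqcrc1 (0.118) lost theirs. Uqcrfs1, the Rieske iron-sulfur protein, did not pass (-0.24, adjusted p = 0.228), nor did Uqcrb (0.24, 0.245).

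In complex IV, Cox5a (chr9:57521274-57532426, plus strand), a structural subunit of cytochrome c oxidase, was at 58.1, 52.9, 73.2 and 74.8 CPM in shCTR, at 84.2, 70.5 and 77.2 CPM in shCBX7 and at 107, 97.1 and 105 CPM in shCBX8. The shCBX8 libraries lay above all others (log2 fold change against shCTR 0.67, SE 0.138, adjusted p = 0.00853), and the call held without any 1 library. It was lost with the background covariate (0.38, adjusted p = 0.240). Cox5a shares 32.0% of its 50-base words with other transcripts. Cox7a2, the form of subunit 7a found in most tissues, rose by 0.32 (SE 0.106, adjusted p = 0.0448) from 110 ± 9.59 CPM (SD, n = 4) to 137 ± 11.5 CPM (SD, n = 3), a call that was lost without any 1 of the 10 libraries (0.0557 to 0.163).

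Complex V held calls of opposite sign in the 2 subunits of its catalytic head. Atp5b (chr10:128083273-128090391, plus strand) was at 743, 692, 794 and 883 CPM in shCTR, at 1047, 927 and 858 CPM in shCBX7 and at 1070, 1044 and 1082 CPM in shCBX8. Atp5a1, the alpha subunit that alternates with beta in the catalytic head, was at 624, 651, 611 and 566 CPM in shCTR, at 684, 652 and 629 CPM in shCBX7 and at 479, 492 and 468 CPM in shCBX8. Against shCTR, Atp5b rose in shCBX8 (log2 fold change 0.45, SE 0.140, adjusted p = 0.0349) and Atp5a1 fell (-0.35, SE 0.112, adjusted p = 0.0381), each without overlap.

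Atp5f1, of the peripheral stalk, rose by 0.42 (SE 0.122, adjusted p = 0.0286) and Atp5mpl by 0.35 (SE 0.103, adjusted p = 0.0305). Atp5f1 shares 38.7% of its 50-base words with other transcripts. All 4 calls of complex V were lost without shCBX8 1 or 6, without shCTR 1 and 2 together, and with the background covariate, where Atp5b was at 0.21 (adjusted p = 0.509). The call of Atp5b was also lost without shCTR 1, 2 or 5 or shCBX7 1 or 2 (adjusted p 0.0532 to 0.105 over these removals), that of Atp5a1 without shCTR 1, 2 or 5 or shCBX7 5 (0.0544 to 0.136), that of Atp5f1 without shCTR 1, 2 or 5 or shCBX7 2 (0.0505 to 0.113) and that of Atp5mpl without any control (0.0561 to 0.116).

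**Figure D4:**
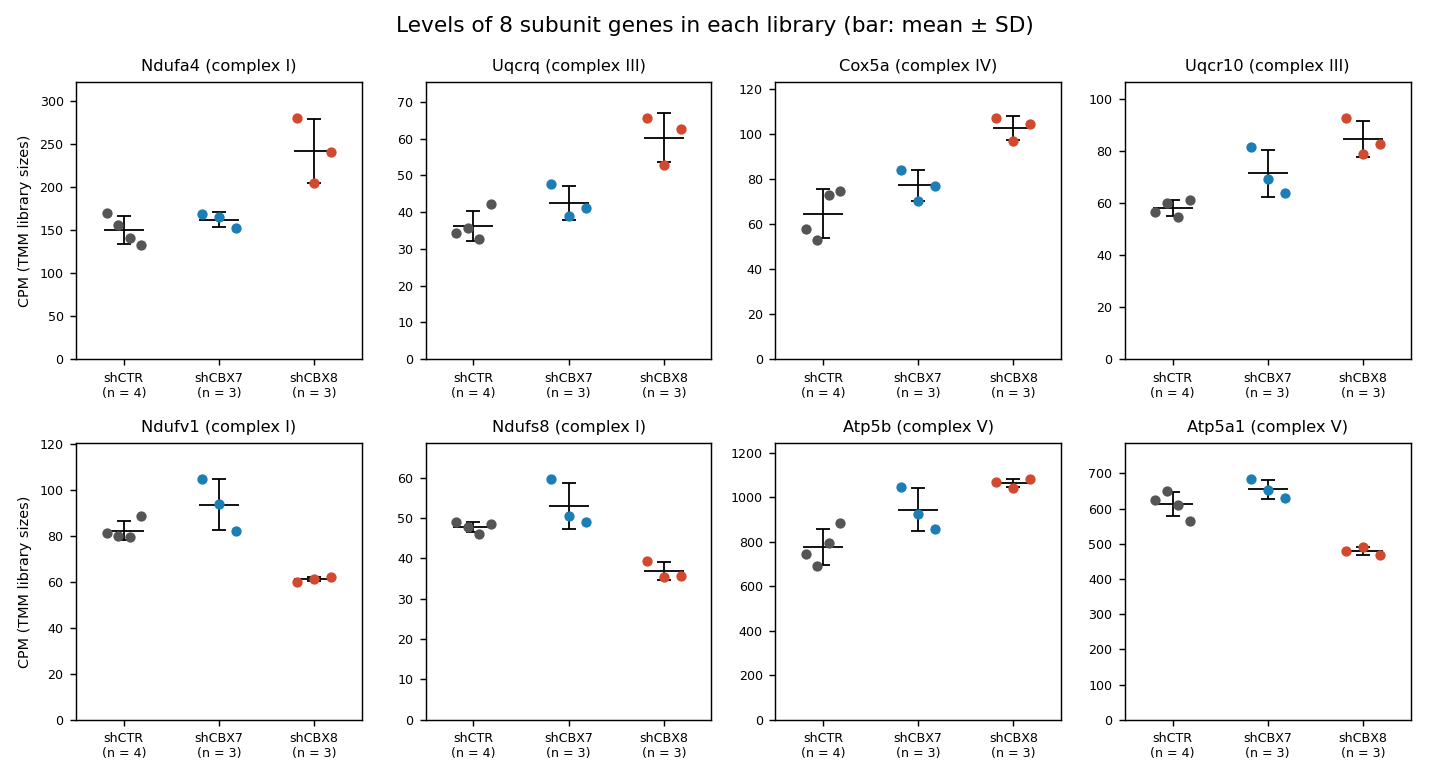
CPM of 8 subunit genes in each library, with the group mean and SD as bars, on axes that start at 0. In shCBX8 the genes Ndufa4, Uqcrq, Cox5a and Uqcr10 lie above and Ndufv1, Ndufs8 and Atp5a1 below all shCTR libraries, and the 3 Atp5b values (1044 to 1082) lie close together above the controls.

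For shCBX8 against shCTR the replicate numbers were taken as pairs, although the labels do not say what a number marks. The fit over all 10 libraries with the replicate number as a block gave 13 higher and 8 lower of the 80 respiratory genes. In that fit 6036 of all 16669 genes were called, 3074 of them higher. With the block, the calls of Ndufs6 (log2 fold change 0.55, adjusted p = 0.0604), Atp5b (0.44, 0.0566) and Atp5a1 (-0.36, 0.0532) were lost. Ndufa4l2 (-3.54, adjusted p = 0.0118), Ndufb11 (-0.52, 0.0372), Atp5k (-0.43, 0.0248), Ndufb10 (-0.34, 0.0284) and Ndufa2 (-0.31, 0.0394) were called lower with the block and not without it.

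Pairs of subunit genes within a complex were also set against each other as ratios of raw counts, which no scaling of the libraries can alter. In 3 of the 4 pairs 1 gene did not pass against shCTR: Ndufv2 (0.31, adjusted p = 0.0509), Cox5b (-0.23, 0.0941) and Uqcr11 (-0.11, 0.442). These pairs were chosen after their values were seen and carry no test. There were 1.19, 1.06, 1.30 and 1.56 Atp5b reads per Atp5a1 read in shCTR, 1.53, 1.42 and 1.36 in shCBX7, and 2.24, 2.12 and 2.31 in shCBX8. Ndufv2 and Ndufv1 encode partners in the NADH-oxidising module, and their ratio was 0.797 to 1.01 in shCTR, 0.814 to 0.907 in shCBX7 and 1.39 to 1.64 in shCBX8. For Cox5a to Cox5b the ranges were 0.842 to 1.32, 1.05 to 1.16 and 1.89 to 2.11. For Uqcrq to Uqcr11 they were 0.411 to 0.478, 0.411 to 0.504 and 0.689 to 0.863. In each of the 4 pairs the shCBX8 libraries lay apart from all other libraries, a separation that the choice of pairs by their values favours, while shCBX7 overlapped shCTR.

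**Figure D5:**
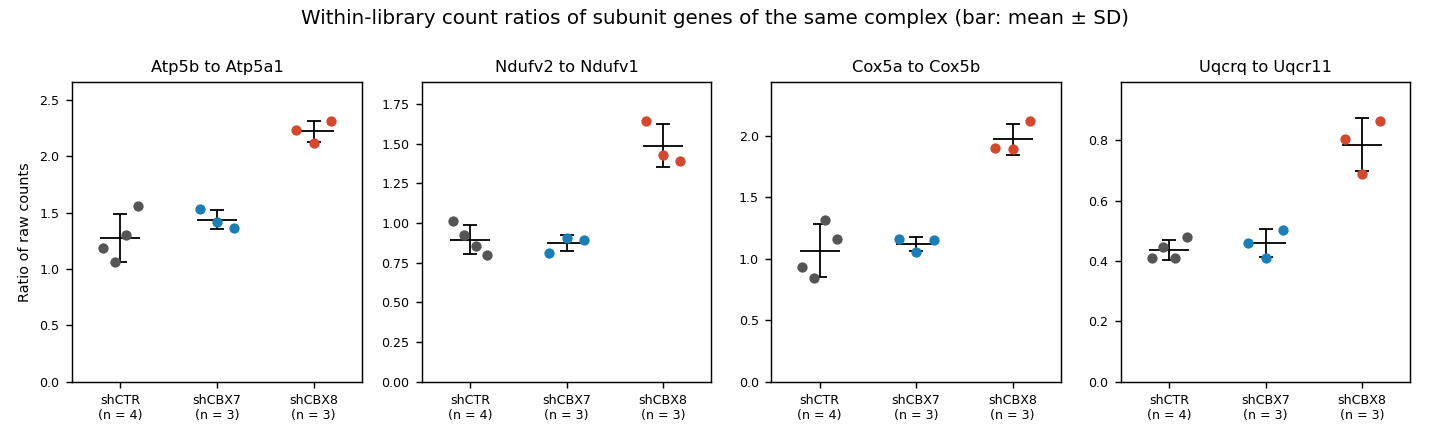
Ratio of raw counts of subunit genes of the same complex within each library, with the group mean and SD as bars. The shCBX8 libraries lie at 2.12 to 2.31 for Atp5b to Atp5a1, against at most 1.56 in the other groups.

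The shCBX8 and shCBX7 libraries were compared with each other. In shCBX8, 3 respiratory genes were higher and 10 lower than in shCBX7 (16.2% of 80, against 28.6% of all genes; 3.75% higher, against 15.3%, and 12.5% lower, against 13.3%), with a median log2 fold change of -0.03. The libraries did not overlap for 14 genes that were higher and 20 that were lower, against 25.6% and 22.6% of all genes. Scaling by library size alone gave 14 higher and 4 lower, with a shift of the median of all genes to 0.15 and of the share of higher calls among all genes from 53.5% to 67.1%. The falls of Ndufv1 (-0.61, SE 0.109, adjusted p = 0.0063) and Ndufs8 (-0.53, SE 0.107, adjusted p = 0.00949) were the firmest. Ndufv1 was at 105, 93.9 and 82.4 CPM in shCBX7 and Ndufs8 at 59.6, 50.5 and 48.98 CPM, in each case above all shCBX8 libraries, and both calls held in all 21 alternatives.

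Ndufa4 (0.58, SE 0.145, adjusted p = 0.0187) and Uqcrq (0.50, SE 0.139, adjusted p = 0.0266) were also higher in shCBX8 than in shCBX7. Atp5g3, at 161, 135 and 138 CPM in shCBX7 and 108, 103 and 97.8 CPM in shCBX8, was lower (-0.49, SE 0.117, adjusted p = 0.0159). The other lower genes were Ndufa2 (-0.50, adjusted p = 0.0184), Ndufb10 (-0.42, 0.0217), Cox5b (-0.40, 0.0205), Atp5a1 (-0.45, 0.0230), Atp5k (-0.45, 0.0468), Sdhc, a membrane anchor of complex II (-0.35, 0.0436), and Cox4i2 (-1.74, 0.0390). The call of Ndufa4 was lost without any 1 shCBX7 library or without shCBX8 1 or 6 (0.0529 to 0.0777), and that of Uqcrq without shCBX7 2 or 5 or shCBX8 1 or 6 (0.0718 to 0.119). The call of Atp5g3 was lost without shCBX7 1 or shCBX8 6 (0.0518 to 0.0725), and so was that of Cox5b (0.0535 to 0.0901). Ndufa2 lost its call without shCBX8 6 (0.0780). Ndufb10 (0.0556 to 0.0822) and Atp5a1 (0.0506 to 0.0887) lost theirs without shCBX7 1 or 2 or shCBX8 1 or 6, Sdhc (0.0651 to 0.141) without those or shCTR 5, and Atp5k (0.0515 to 0.165) without those, shCTR 1, shCTR 5 or shCBX8 2. Cox4i2 lost its call without any shCBX7 library or shCBX8 1 or 6 (0.0529 to 0.137). Without shCTR 1 and 2, which enter this comparison through the shared spread, Uqcrq (0.0502), Sdhc (0.0627) and Atp5k (0.0560) were lost, and the background covariate ended the calls of Sdhc (0.0922) and Atp5k (0.0726).

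Most tissue-restricted isoforms of complex IV had few counts, other than Cox6b2. Cox4i2, the lung and low-oxygen form of subunit 4, had 30, 12, 12 and 11 counts in shCTR (1.19, 0.601, 0.427 and 0.317 CPM), 24, 15 and 15 in shCBX7 and 5, 6 and 5 in shCBX8 (0.105, 0.180 and 0.107 CPM). The shCBX8 libraries lay below all others (log2 fold change -2.26 against shCTR, SE 0.52, adjusted p = 0.0123). The call was lost without shCBX8 1 or 6 (0.0600 to 0.0610) without shCTR 1 and 2 together (-1.52, 0.0569) and with the background covariate (-1.19, 0.334). Per kilobase, Cox4i2 made up 0.244% ± 0.146 (SD, n = 4) of the 2 subunit 4 forms in shCTR and 0.043% ± 0.011 (SD, n = 3) in shCBX8. Its common partner Cox4i1 was at 268 ± 11.4 CPM (SD, n = 4) in shCTR and 315 ± 18.05 CPM (SD, n = 3) in shCBX8 (0.24, adjusted p = 0.0894).

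The muscle forms were Cox7a1, Cox8b and Cox6a2. Cox6a2, of subunit 6a, had 6 counts in all in shCTR, 2 in shCBX7 and 4 in shCBX8 and was not tested. Cox7a1, the heart and muscle form of subunit 7a, had 14, 9, 9 and 14 counts in shCTR, 8, 10 and 21 in shCBX7 and 58, 14 and 56 in shCBX8. The values for shCBX8 1 and 6 were the highest, and shCBX8 2 lay among the controls. It passed against shCBX7 (log2 fold change 1.56, SE 0.508, adjusted p = 0.0463), a call lost without any 1 of 8 libraries, all but shCBX7 5 and shCBX8 2 (0.0558 to 0.152), without shCTR 1 and 2 together (0.0665) and with the background covariate (0.140), and it did not pass against shCTR (1.14, adjusted p = 0.0876).

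Cox8b, the muscle form of subunit 8, had 0 counts in all 4 shCTR libraries, 0, 0 and 5 in shCBX7 and 14, 2 and 45 in shCBX8. Pooled over the groups, it was at least 19.5-fold higher in shCBX8 than the limit that 0 counts allow in shCTR, taken as 3 counts over the whole group, and it was not tested. Beside these genes, the summed level of 12 skeletal and cardiac muscle markers was 3.43 to 5.42 CPM in shCTR, 3.12 to 6.95 CPM in shCBX7 and 39.2, 20.6 and 65.0 CPM in shCBX8 1, 2 and 6; 10 of the 12 had a mean under 1 CPM. Most of that sum was Acta1 (a mean of 37.7 CPM in shCBX8), and the muscle-defining genes Myod1, Myog and Ckm stayed at or under 0.0501, 0.396 and 0.0576 CPM. Their part in the levels of Cox7a1 and Cox8b was not tested.

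Cox6a1 and Cox8a, the forms of subunits 6a and 8 found in most tissues, did not pass in any comparison. Cox6a1 was at 112 ± 13.8 CPM (SD, n = 4) in shCTR, 129 ± 13.1 CPM (SD, n = 3) in shCBX7 and 133 ± 2.76 CPM (SD, n = 3) in shCBX8, and Cox8a at 126 ± 7.57, 136 ± 7.52 and 146 ± 9.77 CPM in the same groups. Cox6b2, the testis form of subunit 6b, was at 26.8 CPM in shCTR 1 and at 8.13 to 14.6 CPM in the other 9 libraries. Of the 3 genes for the c subunit of ATP synthase, which encode the same mature protein, Atp5g3 gave 84.5% of the level per kb in shCTR, 87.6% in shCBX7 and 80.9% in shCBX8. Atp5g1 gave 4.52%, 4.32% and 5.78%. These shares depend on the transcript length used, which was 4715 bases for Atp5g1 and 723 for Atp5g3. Before division by length, Atp5g1 was at 39.7 CPM and Atp5g3 at 114 CPM in shCTR. The level of Atp5g2, with 87.4% of its words shared, is uncertain, and so are the shares of all 3 genes. Ndufa4l2 had 0.0419, 0.271 and 0 CPM in shCBX8 and did not pass without the block (-3.71, adjusted p = 0.0645).

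Genes that build or feed the respiratory chain were counted from lists chosen by function. Of 48 tested assembly factors, 18 rose and 3 fell in shCBX8 against shCTR (17% and 15.9% of all genes did so; the median log2 fold change of the list was 0.28), and none passed in shCBX7. Timmdc1, which helps to assemble the membrane arm of complex I, went from 30.0 ± 2.16 CPM (SD, n = 4) to 50.8 ± 3.56 CPM (SD, n = 3; 0.76, SE 0.10, adjusted p = 0.00218). Sdhaf2, which attaches flavin to Sdha, went from 54.1 ± 2.25 to 86.9 ± 3.23 CPM (0.68, SE 0.094, adjusted p = 0.00225). Ecsit, an assembly factor of complex I that also acts in innate immune signalling, fell from 15.0 ± 1.41 to 7.44 ± 0.416 CPM (-1.02, SE 0.139, adjusted p = 0.00225). None of the 3 had overlapping groups, and their calls held without any 1 library, without shCTR 1 and 2, and with the background covariate.

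Of 16 carriers and further subunits, 3 rose and 3 fell, beside 17% and 15.9% of all genes. Cycs, the gene for somatic cytochrome c, rose from 23.2 ± 3.24 to 42.2 ± 3.14 CPM (0.86, SE 0.158, adjusted p = 0.00543), a call lost with the background covariate (0.60, 0.146). Of the genes for ubiquinone synthesis, Coq2 rose (0.74, adjusted p = 0.00426) and Coq9 fell (-0.76, adjusted p = 0.00210). Of 17 regulators of respiration, 2 rose and 2 fell, among them Tfam, which packages mitochondrial DNA and starts its transcription (0.48, adjusted p = 0.00553; lost without shCTR 1 and 2, 0.0513, and with the background covariate, 0.0749), Tefm, its elongation factor (0.87, adjusted p = 0.0180; lost without shCBX8 1 or 6, 0.0671 to 0.0805, and without shCTR 1 and 2, 0.0555), and Polg, the mitochondrial DNA polymerase, which fell from 62.7 ± 5.05 to 33.3 ± 4.61 CPM (-0.91, SE 0.133, adjusted p = 0.00265).

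Of 13 genes of the citric acid cycle, 4 rose and 0 fell, beside 17% and 15.9% of all genes, with a median of 0.28. Suclg2 (0.71, adjusted p = 0.00281), Suclg1 (0.45, 0.0151) and Mdh2 (0.67, 0.0196) were among them. The calls of Suclg1 (0.0659 to 0.0671) and Mdh2 (0.0554 to 0.0730) were lost without shCBX8 1 or 6, and that of Mdh2 also without shCTR 1. Without shCTR 1 and 2 together, Suclg1 (0.0574) and Mdh2 (0.43, 0.125) lost their calls, and with the background covariate Mdh2 was at 0.15 (0.639). In shCBX7 no gene of these lists passed, as none of all genes did.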

How the data were processed

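Stranded total RNA libraries from 10 cultures were analysed. The authors deposited 1 file per library in the layout of STAR, holding raw counts for each Ensembl gene in unstranded, forward and reverse columns. Per the submitters' processing notes, bcl2fastq 2.17, Trim Galore 0.4.3, STAR 2.5.0a and the build mm10 were used. The release of the annotation was not given in the sources used. The reverse-strand column was used, which held 22763014 to 50463172 gene counts per library. Rows for unmapped, multimapping (15.4% to 22.1% of reads), ambiguous and unassigned reads name no gene and stayed out of all library sizes. GENCODE symbols matched 40217 of 41091 identifiers.

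Genes were filtered with edgeR's filterByExpr at a minimum count of 10. TMM scaling, the quasi-likelihood test (edgeR 4.0.16, R 4.3.3) with 1 term for the group over all 10 libraries, and Benjamini-Hochberg adjustment over 16669 genes followed, with a threshold of 0.05. CPM values use TMM library sizes. DESeq2 1.42.0 and the alternatives described under the processing were run beside it, and the procedure was tested on simulated data. Nothing in the labels says that replicates came from separate animals, so the spread behind every p-value is that between libraries, and it may be technical.

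The labels give the groups shared replicate numbers and do not say what a number marks. For shCBX8 and shCTR the deviations of the same-numbered libraries from their group means correlated at 0.23, 0.29 and 0.13 over all genes tested. The numbers were taken as pairs on this ground, without the correlations of differently numbered libraries to set beside them. For shCBX7 and shCTR, numbers 1, 2 and 5 gave -0.07, 0.76 and 0.41. The shCBX7 and shCBX8 groups share only 2 numbers (0.17 and 0.36).

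The genes, the lists and the tests were chosen with earlier results of these data known. Genes are named by rule: in each comparison the 5 smallest p in each direction and the extremes of each complex, alternative isoforms, the highest and lowest per kb, up to 3 of each other list, the 5 genes most like the mean of the respiratory genes, and the 2 hairpin targets.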

Additional observations from a re-analysis of the deposited data

Results flagged for a closer look

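Atp5g1, one of the genes for the c subunit of ATP synthase, was at 42.2 CPM in shCTR 6 and at 39.0, 38.6 and 38.9 CPM in shCTR 1, 2 and 5. The gap to the nearest of the others was 0.883 of the whole range of the group, above Dixon's 95% critical value for 4 samples. It was the 1 result among the 86 sets of shCTR values examined in this way, where chance alone marks about 1 in 20. The 4 values span few CPM, and Atp5g1 was at 53.5, 45.2 and 40.9 CPM in shCBX7 and at 49.7, 44.4 and 49.6 CPM in shCBX8.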

How the results depend on the processing

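For shCBX7 against shCTR, 0 genes changed in the test used and in every alternative but DESeq2 (91 genes) and the removal of shCTR 6 (41 genes; a range of 0 to 41 over the removal of single libraries); 0 respiratory genes changed in all 21. Uncalled values changed sign there: without shCTR 1 and 2, Cox4i2 (0.24) and Ndufb11 (0.13); with the covariate for receptor-gene background, Cbx7 (1.78), Cox4i2 (0.93), Cox6b2 (0.84), Ndufa4l2 (0.31) and Ndufb11 (0.56).

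For shCBX8 against shCTR, 15 higher and 4 lower respiratory genes became 32 and 1 with library size only, 5 and 1 with no filter (34672 genes tested), 3 and 0 without shCTR 1 and 2 (2409 genes in all) and 8 and 1 with the background covariate (2311 genes), where 12 of the 15 and 3 of the 4 calls were lost and 5 others added. DESeq2 gave 8 lower, the 2 groups alone 9 higher and the replicate block 8 lower. Leaving out single libraries gave 5 to 16 higher, 0 to 7 lower and 2261 to 6193 genes in all. The fewest came without shCBX8 1 or 6 (5 and 0 each; 2261 and 2279 genes). There were 6 higher without shCTR 1, 7 without shCTR 2 and 8 without shCTR 5, and 7 lower without shCTR 6.

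For shCBX8 against shCBX7, 3 higher and 10 lower became 14 and 4 with library size only and 0 and 4 with no filter. Testing genes that average 1 CPM or more, and DESeq2, each gave 7 higher, and the 2 groups alone and the replicate block each 1. Leaving out single libraries gave 0 to 4 higher, 2 to 11 lower and 1784 to 6005 genes: 1848 without shCBX8 1 (0 and 5), 1784 without shCBX8 6 (0 and 2), 2730 without shCBX7 1 (1 and 3), 2900 without shCBX7 2 (0 and 5), and 1 higher without shCBX7 5. The cause was not tested, apart from the fewer libraries or more genes that a setting itself brings. With the replicate block no gene changed in shCBX7 against shCTR. Between shCBX8 and shCBX7, the block ended the calls of Uqcrq (adjusted p = 0.0525), Cox4i2 (0.0668), Cox7a1 (0.132) and Atp5a1 (0.0519) and added Sdha (-0.46, 0.0465); besides those and the 8 given for shCBX8 against shCTR it changed no call of a respiratory gene. Few counts limit Cox4i2, Cox7a1, Cox8b and Ndufa4l2.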

Other observations

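The genes whose log2(CPM + 1) followed the mean of the 80 tested respiratory genes most closely over the 10 libraries, among 11086 other genes that averaged 5 CPM or more, were Brk1, of the actin-nucleating WAVE complex (Pearson's r = 0.948), Golga7 (0.942), Copb1, of the COPI vesicle coat (0.933), Sccpdh (0.925) and Slc25a4, the ADP/ATP carrier of the inner mitochondrial membrane (0.889). All points share the same libraries and scaling, and the values are a description. Slc25a4 was at 466, 471, 427 and 419 CPM in shCTR, 544, 534 and 431 CPM in shCBX7 and 488, 485 and 485 CPM in shCBX8.

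Other marker lists had these summed levels in shCTR, shCBX7 and shCBX8. Smooth muscle and pericyte markers were at 589 to 1852, 571 to 1282 and 1786 to 5576 CPM, and brown fat and adipocyte markers at 474 to 3304, 312 to 2786 and 6.73 to 313 CPM. Globose basal cell markers were at 2.15 to 6.94, 1.54 to 6.32 and 7.15 to 15.2 CPM, and olfactory neuron markers at 62.3 to 124, 66.1 to 159 and 25.5 to 90.7 CPM. Ensheathing cell markers were at 8.47 to 38.4, 11.7 to 46.6 and 8.30 to 28.3 CPM, endothelial markers at 8.47 to 48.4, 20.3 to 43.0 and 21.9 to 22.9 CPM, and immune markers at 4.91 to 13.6, 4.25 to 31.1 and 9.77 to 29.4 CPM. In shCBX8 against shCTR, 2 of 4 tested brown fat and adipocyte markers were called higher and 0 lower (median log2 fold change -0.17). Of 6 tested olfactory neuron markers, 1 was called higher and 0 lower (-0.89). Over all genes tested, 17% were higher and 15.9% lower. The brown fat marker Ucp1 did not exceed 0.314 CPM. Their part in the levels of respiratory genes was not tested.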
